A study of Mus musculus with 20 samples.

Results

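The response of tumour-infiltrating myeloid cells to radiotherapy given without antibody was measured by RNA sequencing in 6 of the 20 libraries of the series. These were the untreated and the 8 Gy library of each of 3 sorted populations, and the changes described are those shared by the 3 populations. The other 9 myeloid libraries are given only as levels, and the 5 CD8 T cell libraries were left out.

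All mice were of strain C57BL/6 and carried MC38-OVA tumours, which derive from a mouse colon carcinoma line made to express the model antigen ovalbumin. One group received 8 Gy of focal radiotherapy on day 12, and the untreated group, which the study also describes as sham-irradiated, received no dose and no antibody. Tumours were taken on day 17, 5 days after irradiation. Leukocytes of 10 tumours were pooled for each treatment and sorted by 2 surface integrins into cells with both CD11c and CD11b (CD11c+CD11b+), cells with CD11c but not CD11b (CD11c+CD11b-) and cells with CD11b but not CD11c (CD11c-CD11b+). Each population and treatment gave 1 library. The 3 libraries of a treatment therefore came from the same pool of tumours. The tests compare 3 pairs, 1 per population, and their p-values measure how far the difference varies between populations, not between pools or mice. Any difference between the 2 pools that is not due to radiation cannot be told apart from it.

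Radiation breaks DNA, and fragments that reach the cytosol are bound by the sensor cGAS, which signals through STING to switch on type I interferon genes. Secreted interferon acts on its receptor, and transcription factors then bind the interferon-stimulated response element, a short motif near the start of antiviral genes. Myeloid cells both make and answer interferon, and in tumours they lie in a collagen-rich matrix that is made mainly by stromal and tumour cells.

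The 6 libraries held 26221672 to 30821075 estimated counts each, and levels are given in CPM, the counts scaled to a common library size after TMM normalisation. Every triplet of values gives the double-positive cells first, the CD11c+CD11b- cells second and the CD11c-CD11b+ cells last. A log2 fold change is that of 8 Gy over untreated, from edgeR's fit with population as a term. Its standard error (SE) is approximate. It comes from the test's F statistic, which combines the spread of the gene's 3 pairs with that of other genes. Mitochondrial genes took 1.35 to 1.89% of the counts in the untreated libraries and 0.904 to 0.941% in the irradiated ones, so their shares did not overlap, and the part of this difference in the results was not tested. The sorted integrins followed the labels: Itgam, which encodes CD11b, stood at 1255, 96.7 and 740.0 CPM in untreated cells and at 1519, 116 and 1437 CPM after 8 Gy. Levels of Itgax, which encodes CD11c, were 339.6, 261 and 121 CPM and 413, 345 and 79.3 CPM. The CD11c+CD11b- fraction also carried lymphoid transcripts, with 313 CPM summed over 14 T cell markers when untreated and 508 CPM after 8 Gy, against at most 82.6 CPM in the other 4 libraries. Summed over 10 NK cell markers, its levels were 2314 and 3314 CPM, against at most 206 CPM in the other 4. The part of these cells in the results was not tested.

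Of 20200 genes tested, 1441 passed edgeR's quasi-likelihood test at an adjusted p below 0.05, which is 7.13%. After 8 Gy, 521 of them were higher (2.58% of genes tested) and 920 were lower (4.55%). Of the 1441 genes, 1438 moved the same way in all 3 populations, as did 49.8% of all genes tested, and the test itself favours genes whose pairs agree. Larger falls were more numerous than larger rises: 600 genes (2.97%) were at least 2-fold lower in each of the 3 pairs and 162 (0.802%) at least 2-fold higher in each. Among the genes that rose, the median log2 ratio was 0.81, 0.93 and 0.96 in the 3 populations. Among those that fell it was -1.19, -1.58 and -1.05, with the deepest fall in CD11c+CD11b- cells. The count changed with the pairs used: without the CD11c+CD11b+ pair or without the CD11c-CD11b+ pair, 0 genes passed in edgeR, although 3473 and 3341 had an unadjusted p below 0.05. Without the CD11c+CD11b- pair 2294 passed. Each of these 3 fits had 1 residual degree of freedom.

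Among the 521 genes that rose were 28 genes of the type I interferon list and 17 of the interferon gamma list, and among the 920 that fell 16 collagens and 19 other matrix proteins. Each list count below is to be read beside the shares over all genes tested, 2.58% higher and 4.55% lower. A bulk library cannot tell fewer cells of a type from less RNA per cell, and this holds for every result below.

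Trex1, which encodes the exonuclease that degrades cytosolic DNA, had the largest rise among the named genes. It lies at chr9:109057933-109059734, minus strand in GRCm38 and overlaps Atrip on the same strand, so reads of the 2 genes may have been divided between them. Its level was 18.4, 4.33 and 8.27 CPM in untreated cells and 72.6, 44.4 and 43.5 CPM after 8 Gy (log2 fold change 2.55 ± 0.29, SE; edgeR adjusted p = 0.0251). All 3 irradiated libraries were above all 3 untreated ones, as in 7.62% of all genes tested. The CD11c+CD11b- pair, which started lowest, had the largest ratio. The log2 ratios of the pairs were 1.96, 3.34 and 2.38. Transcript Trex1-202 held 70.7 to 89.5% of the gene's counts in untreated cells and 92.4 to 100% after irradiation. In the irradiated pools that also received antibody, Trex1 ranged over 5.83 to 78.5 CPM. The lowest of these, 5.83 CPM, was the CD11c+CD11b- library of the anti-SIRPa pool, near the untreated 4.33 CPM of that population.

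Irf7, the transcription factor that amplifies type I interferon production, lies at chr7:141262706-141266481, minus strand and overlaps Phrf1 on the opposite strand. Whether the counting used strand is not given in the sources used here. It rose from 420.1, 136 and 262 CPM to 1101, 416 and 809.9 CPM (log2 fold change 1.54 ± 0.12, SE; edgeR adjusted p = 0.0251). The ratios were nearly the same in the 3 populations, at 1.37, 1.62 and 1.63 on the log2 scale, but the groups overlapped, since irradiated CD11c+CD11b- cells reached only the level of untreated CD11c+CD11b+ cells. Transcript Irf7-203 was the main form in every library, with 45.6 to 67.5% of the gene's counts before and 61.9 to 81.2% after irradiation. Across the antibody pools Irf7 ranged over 271 to 1147 CPM.

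**Figure D1:**
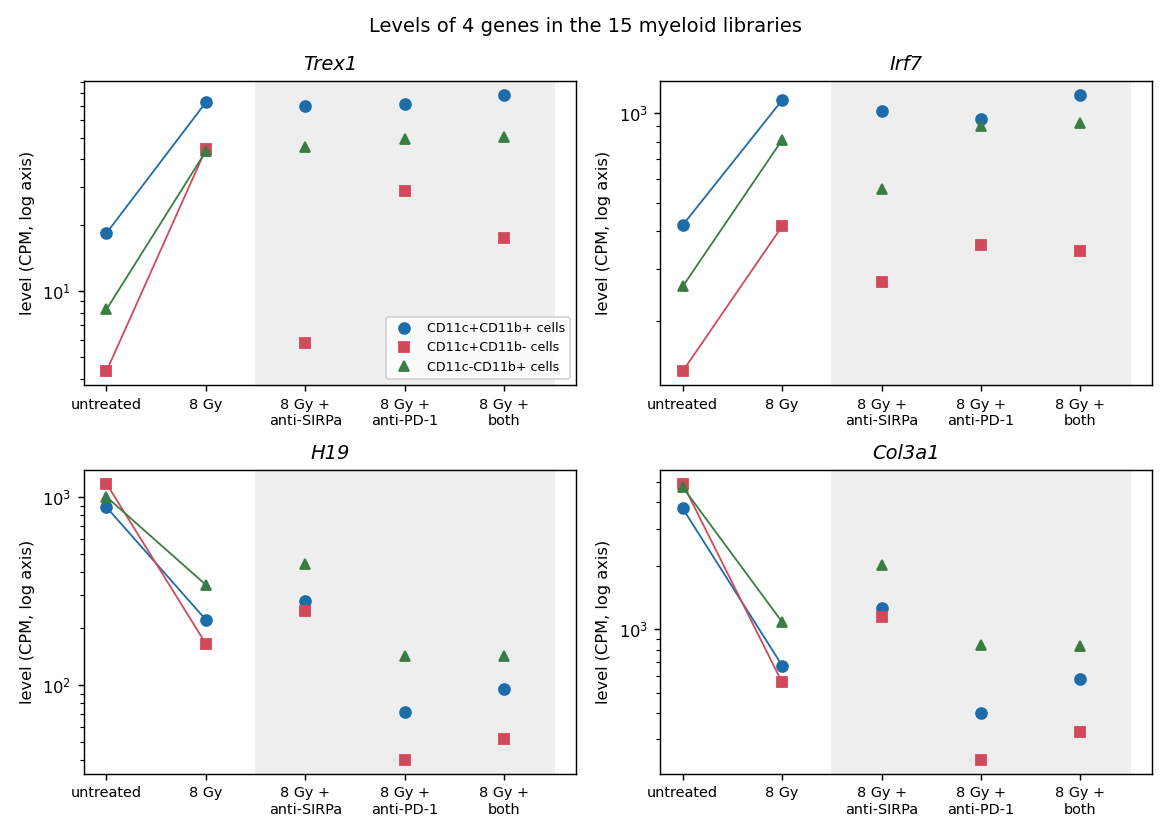
Levels of Trex1, Irf7, H19 and Col3a1 in CPM on log axes in each of the 15 myeloid libraries, with 1 point per library, colours and shapes for the 3 populations, and lines joining the untreated and the 8 Gy library of a population. The first 2 genes rise and the other 2 fall along all 3 lines, and the shaded pools with antibody are shown as levels only.

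Of 41 tested members of the type I interferon response list, 28 rose and 0 fell in edgeR's test, and 39 were higher in all 3 pairs. The list's median log2 fold change was 0.96, against 0.04 over all genes tested. Summed over the list, levels were 7766, 3876 and 6056 CPM in untreated cells and 15385, 7103 and 14915 CPM after 8 Gy. Each irradiated library was above its untreated partner, and CD11c+CD11b- cells were lowest in both states. The 9 libraries with antibody ranged from 5867 to 16218 CPM.

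Effector genes had the largest rises of the list beside Irf7. Ifi205, a member of the PYHIN family that includes DNA-binding sensors, stood at 145, 45.5 and 89.9 CPM in untreated cells and 416, 308 and 328 CPM after 8 Gy (log2 fold change 2.04 ± 0.26, SE; edgeR adjusted p = 0.0256). Slfn5 of the Schlafen family had 485, 75.5 and 308 CPM before and 914, 377 and 991 CPM after 8 Gy (log2 fold change 1.63 ± 0.29, SE; edgeR adjusted p = 0.0402). Mx1, the dynamin-like antiviral GTPase, went from 158, 45.8 and 85.5 to 313, 126 and 329 CPM (log2 fold change 1.46 ± 0.20, SE; edgeR adjusted p = 0.0271). In each of the 3 genes the irradiated library of a population was above its untreated partner. Smaller but passing rises were seen for the signalling factors Stat2 (log2 fold change 0.93) and Irf9 (0.60), which act downstream of the type I receptor. The ubiquitin-like modifier Isg15 (1.06), its protease Usp18 (1.19) and Ifit2 (1.32), which binds viral RNA, passed as well. Of the 13 members that did not pass, Cmpk2 had a log2 fold change of 1.04 with an edgeR adjusted p of 0.0506 and Rsad2, the antiviral enzyme viperin, 1.04 with 0.0764.

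Promoter windows from RefSeq on GRCm38.p6 ran from 250 bases before to 50 bases after the annotated start. They show where the interferon motif lies in the type I interferon list and in the genes that rose or fell most. Both strands were searched for the core of the interferon-stimulated response element, spelled GAAA, then 2 bases of any kind, then GAAA. It occurred in 3.44% of all 32851 windows and in 20 of 36 windows (55.6%) of the type I interferon list, covering 18 of its 31 genes that had a window. These 18 include Ddx58 and Rsad2, which did not pass. Counted by gene, the motif was in 3.99% of all genes with a window and 3.87% of those tested. Of the 15 genes that rose most, 12 had a window and 3 carried the motif, namely Ifit1bl1, Ifi205 and Phf11a. Of the 15 that fell most, 11 had a window and 2 carried it, Egr4 and Igf2. The letters are not in the windows of Trex1 or Irf7. Ifit1bl1 has 2 windows with a match, of which 1 is printed; the other lies at chr19:34601919-34602218, minus strand, with its match from position -104. One window of each of these 3 risers and that of Isg15, which holds 3 overlapping matches, are printed in the 5′ to 3′ direction of the gene with the matches in capitals. A capital run with TTTC at both ends is the motif on the other strand.
Ifit1bl1 (chr19:34599378-34599677, minus strand, match from position -23 relative to the start): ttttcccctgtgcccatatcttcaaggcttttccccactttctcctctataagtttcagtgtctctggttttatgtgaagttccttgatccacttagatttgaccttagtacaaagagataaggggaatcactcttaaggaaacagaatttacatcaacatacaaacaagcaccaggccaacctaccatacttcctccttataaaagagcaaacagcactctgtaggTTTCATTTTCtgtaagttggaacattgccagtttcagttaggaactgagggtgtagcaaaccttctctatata
Ifi205 (chr1:174031706-174032005, minus strand, matches from positions -134 and 23): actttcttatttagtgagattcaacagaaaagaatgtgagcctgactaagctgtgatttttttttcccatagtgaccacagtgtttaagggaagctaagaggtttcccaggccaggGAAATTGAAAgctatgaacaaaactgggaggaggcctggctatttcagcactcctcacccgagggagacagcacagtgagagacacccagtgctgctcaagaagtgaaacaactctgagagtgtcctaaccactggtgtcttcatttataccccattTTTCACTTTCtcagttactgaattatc
Phf11a (chr14:59297473-59297772, minus strand, match from position -29): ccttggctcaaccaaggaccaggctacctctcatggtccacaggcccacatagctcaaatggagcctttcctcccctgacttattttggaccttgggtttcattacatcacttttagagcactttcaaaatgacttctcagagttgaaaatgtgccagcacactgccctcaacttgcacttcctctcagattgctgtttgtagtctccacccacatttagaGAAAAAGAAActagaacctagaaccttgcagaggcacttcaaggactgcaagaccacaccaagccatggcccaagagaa
Isg15 (chr4:156200769-156201068, minus strand, matches from positions -78 to -66): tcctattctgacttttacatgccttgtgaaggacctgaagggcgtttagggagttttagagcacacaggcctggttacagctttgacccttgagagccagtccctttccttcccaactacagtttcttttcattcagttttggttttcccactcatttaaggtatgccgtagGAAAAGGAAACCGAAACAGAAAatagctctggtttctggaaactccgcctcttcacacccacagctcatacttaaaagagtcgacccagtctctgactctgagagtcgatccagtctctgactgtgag
These matches describe letters in a window and are not binding sites measured here.

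Levels of the interferons themselves were low. Ifnb1, which encodes interferon beta, had 1.23, 0.333 and 1.40 CPM in untreated and 0.951, 0.294 and 1.65 CPM in irradiated cells (log2 fold change -0.10 ± 0.36, SE; edgeR adjusted p = 0.897). No direction was seen at this level. Ifng had a log2 fold change of 0.62 with an edgeR adjusted p of 0.217, and Ifna2 and Ifna4 had too few counts to be tested. Receptor chains did change: 3 of 7 tested members of this list rose and 0 fell in edgeR's test. They were Ifnar2 (log2 fold change 0.63), the second chain of the type I receptor, Ifngr2 (0.61), the second chain of the gamma receptor, and Il10rb (0.82), the chain shared by the interleukin-10 and interferon lambda receptors. Ifnar1 did not pass, with 0.30 and an edgeR adjusted p of 0.241.

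Among 28 tested genes of cytosolic and endosomal nucleic acid sensing, 8 rose and 0 fell in edgeR's test, with a median log2 fold change of 0.58. Besides Trex1, the endosomal DNA receptor Tlr9 rose from 128, 18.2 and 79.7 to 336, 118 and 205 CPM (log2 fold change 1.80 ± 0.30, SE; edgeR adjusted p = 0.0373). Its ratio was largest in CD11c+CD11b- cells, where the untreated level was lowest. Samhd1, which removes deoxynucleotides, stood at 599, 176 and 472 CPM before and 1098, 509 and 1123 CPM after 8 Gy (log2 fold change 1.21 ± 0.16, SE; edgeR adjusted p = 0.0264). The other risers were Ifi204, Zbp1, Ifi203, Ifih1, which encodes the RNA sensor MDA5, and Adar, with log2 fold changes of 0.66 to 1.36. The sensor Cgas (0.52, edgeR adjusted p = 0.0678) and Tmem173, which encodes STING (0.58, edgeR adjusted p = 0.0565), did not pass. Ddx58, which encodes the RNA sensor RIG-I, differed by 0.17 with an edgeR adjusted p of 0.627.

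Of 35 tested interferon gamma response genes, 17 rose and 0 fell in edgeR's test, with a median log2 fold change of 0.86, and 19 had all irradiated libraries above all untreated ones, which 7.62% of all genes tested had. Batf2, a basic leucine zipper factor of interferon-activated macrophages, had 10.2, 2.33 and 7.15 CPM before and 32.9, 6.13 and 19.7 CPM after 8 Gy (log2 fold change 1.52 ± 0.14, SE; edgeR adjusted p = 0.0251). Gbp5, a guanylate-binding protein, went from 97.9, 64.7 and 72.8 to 234, 122 and 232 CPM (log2 fold change 1.28 ± 0.16, SE; edgeR adjusted p = 0.0256). Both rose in every pair, though irradiated CD11c+CD11b- cells had less Batf2 than untreated cells of the other populations. The chemokine genes Cxcl11 (log2 fold change 2.28) and Cxcl9 (0.70), which attract activated T cells, passed, and Cxcl10 did not (0.56, edgeR adjusted p = 0.408). Ido1 had a large but uneven difference of 2.54 with an edgeR adjusted p of 0.165.

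In the MHC class I pathway 7 of 22 tested genes rose and 0 fell in edgeR's test, with a median log2 fold change of 0.52. Nlrc5, the activator of class I genes, had 237, 196 and 188 CPM before and 401, 401 and 422 CPM after 8 Gy (log2 fold change 0.98 ± 0.12, SE; edgeR adjusted p = 0.0255). The non-classical class I gene H2-T23 had 257, 163 and 159 CPM before and 528, 383 and 353 CPM after 8 Gy (log2 fold change 1.13 ± 0.10, SE; edgeR adjusted p = 0.0251). In both genes every irradiated library was above every untreated one, as in 7.62% of all genes tested. The peptide transporter subunits Tap1 (0.85) and Tap2 (0.61), the immunoproteasome subunit Psmb9 (0.88), Tapbpl (0.89) and H2-M3 (0.76) were the other log2 fold changes that passed. The classical heavy chains H2-K1 (0.54, edgeR adjusted p = 0.0972) and H2-D1 (0.51, edgeR adjusted p = 0.0869) did not pass, and reads of these near-identical genes may be divided between copies.

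MHC class II genes did not move alike in the 3 populations. Only Ctss, the protease that trims the invariant chain, rose among 11 tested genes (log2 fold change 0.84 ± 0.13, SE; edgeR adjusted p = 0.0342). The share that rose among all genes tested was 2.58%. The list's median log2 ratios were 0.28, 2.54 and -0.07, with the high value in the CD11c+CD11b- pair, and the 10 other genes did not pass. Markers of conventional type 1 dendritic cells moved with them, with medians of 0.15, 3.05 and 0.26, and 2 of 11 rose in edgeR's test: Irf8 (0.98), a factor these cells need, and the chemokine receptor Xcr1 (2.03). Xcr1 had 3.44, 8.14 and 2.55 CPM before and 8.74, 69.3 and 7.60 CPM after 8 Gy. Summed over the 11 markers, levels were 829, 782 and 461 CPM and 1149, 3242 and 749 CPM. The other dendritic cell lists also had their highest median in the CD11c+CD11b- pair. Median log2 ratios were -0.11, 1.71 and 0.45 for type 2 conventional cells and 0.25, 1.94 and -0.28 for mature cells. For plasmacytoid cells they were 0.08, 2.55 and -0.02. The part of dendritic cells in the other results of the CD11c+CD11b- pair was not tested.

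**Figure D2:**
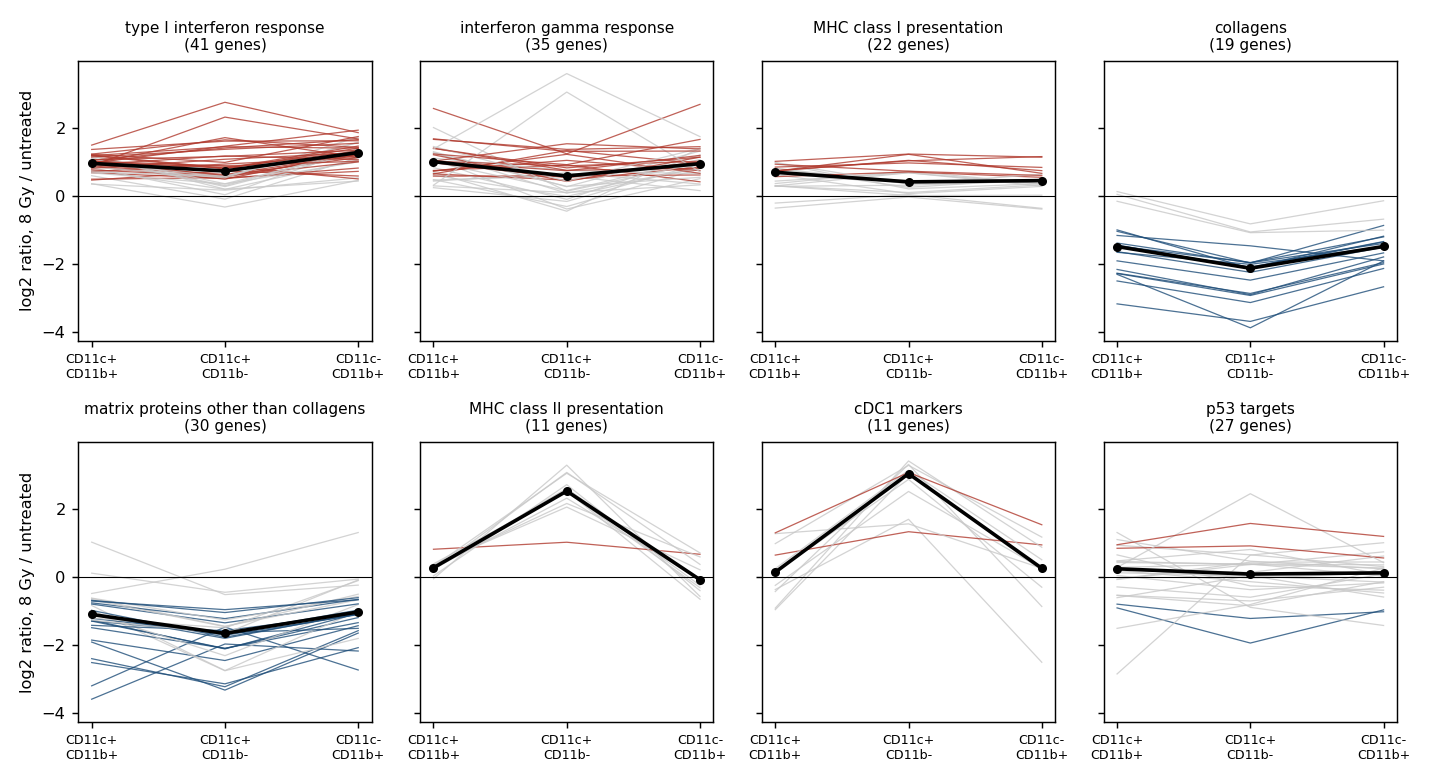
Log2 ratios of 8 Gy alone over untreated in the 3 populations for the tested members of 8 gene lists; each thin line is 1 gene, red where it passed as higher, blue where it passed as lower and grey where it did not pass, and the black line joins the list medians. The medians of the interferon lists lie above 0 and those of collagens and matrix proteins below 0 in all 3 populations, whereas the MHC class II and cDC1 medians are 2.54 and 3.05 in CD11c+CD11b- cells and at most 0.28 in the other 2 populations.

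Of 21 tested checkpoint and costimulation genes, 7 rose and 0 fell in edgeR's test. The ligands of PD-1 were among them. Pdcd1lg2, which encodes PD-L2, had 12.5, 8.83 and 1.85 CPM in untreated and 32.4, 49.5 and 7.75 CPM in irradiated cells (log2 fold change 1.96 ± 0.25, SE; edgeR adjusted p = 0.0256). Cd274, which encodes PD-L1, had 181, 71.8 and 129.7 CPM before and 375, 208 and 339.7 CPM after 8 Gy (log2 fold change 1.32 ± 0.13, SE; edgeR adjusted p = 0.0251). For Cd274 every irradiated library was above every untreated one, as in 7.62% of all genes tested. Sirpa, the inhibitory receptor that the study's antibody targets, went from 682, 96.5 and 419.6 to 1154, 157 and 677 CPM (log2 fold change 0.71 ± 0.10, SE; edgeR adjusted p = 0.0287), and its ligand gene Cd47 from 388, 452 and 333 to 565, 657 and 464 CPM (log2 fold change 0.51 ± 0.10, SE; edgeR adjusted p = 0.0489). Siglec1, the sialic acid receptor CD169 of macrophages, had 346, 49.2 and 253 CPM before and 973, 79.1 and 594 CPM after 8 Gy (log2 fold change 1.13 ± 0.18, SE; edgeR adjusted p = 0.0334). The T cell ligand OX40L gene Tnfsf4 (0.97) and the inhibitory ligand VISTA gene Vsir (0.61) completed the set. Cd40 (1.68, edgeR adjusted p = 0.0639) and Cd86 (1.49, edgeR adjusted p = 0.0693) did not pass.

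Of 24 tested cytokine genes, 3 rose and 0 fell in edgeR's test: Il27 (log2 fold change 1.68), a cytokine of antigen-presenting cells, Il1rn (0.98), the interleukin-1 receptor antagonist, and Il15ra (0.74), which presents interleukin-15. Over all genes tested, 2.58% rose and 4.55% fell. Among 25 chemokines 4 rose and 2 fell. Besides Cxcl9 and Cxcl11, Ccl5, which recruits T cells, rose from 83.1, 76.8 and 58.4 to 193, 185 and 148 CPM (log2 fold change 1.27 ± 0.09, SE; edgeR adjusted p = 0.0251), and Pf4, platelet factor 4, rose by 1.35 on the log2 scale. Cxcl1, which attracts neutrophils, fell from 165, 145 and 180.5 to 43.2, 20.6 and 81.0 CPM (log2 fold change -1.97 ± 0.33, SE; edgeR adjusted p = 0.0364), and Cxcl14 fell with a log2 fold change of -0.91. Each irradiated library of Cxcl1 was below each untreated one, as in 11.9% of all genes tested. Of 12 tested neutrophil markers, S100a8 (-1.44) and Mmp9 (-1.36) fell and 0 rose. The list's summed level was 450.4, 130.5 and 914 CPM in untreated and 251, 43.9 and 714 CPM in irradiated cells, and its part in the fall of Cxcl1 was not tested.

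The 15 genes with the largest rises at 10 CPM or more in at least 3 libraries had log2 fold changes from 1.74 to 2.55. Several were surface proteins of the Ly6 family. Ly6c2, which encodes the Ly6C antigen of inflammatory monocytes, had 245, 48.5 and 153 CPM in untreated and 634, 297 and 673 CPM in irradiated cells (log2 fold change 2.03 ± 0.26, SE; edgeR adjusted p = 0.0256). Ly6a, which encodes Sca-1, had 233, 87.7 and 146 CPM before and 919.8, 375 and 437 CPM after 8 Gy (log2 fold change 1.88 ± 0.14, SE; edgeR adjusted p = 0.0251), and Ly6i had 27.0, 1.09 and 9.48 CPM before and 77.9, 11.4 and 49.5 CPM after 8 Gy (log2 fold change 2.33 ± 0.36, SE; edgeR adjusted p = 0.0321). Ifit1bl1 of the IFIT family had 46.2, 5.99 and 22.6 CPM before and 207, 25.5 and 175 CPM after 8 Gy (log2 fold change 2.40 ± 0.21, SE; edgeR adjusted p = 0.0251). Its groups overlapped, although it rose in every pair, as did the 3 Ly6 genes. The Schlafen genes Slfn4 (2.14) and Slfn1 (1.88), Trim30c (1.86), the zinc finger gene Phf11a (1.83) and the receptor gene Pira2 (1.77) belong to families of near-identical copies, as do the Ly6 and Ifi200 genes, so the division of reads among copies is uncertain. Outside these families were B3gnt5 (1.94), a glycolipid glycosyltransferase, and Slco3a1 (1.74), an organic anion transporter. Of 14 tested inflammatory monocyte markers only Ly6c2 and Ms4a4c (1.59) rose and 0 fell, and the receptor Ccr2 did not pass (0.61, edgeR adjusted p = 0.123). Their summed level was 9595, 4017 and 8203 CPM before and 6188, 2820.1 and 9795 CPM after irradiation. For comparison, 2.58% of all genes tested rose and 4.55% fell.

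**Figure D3:**
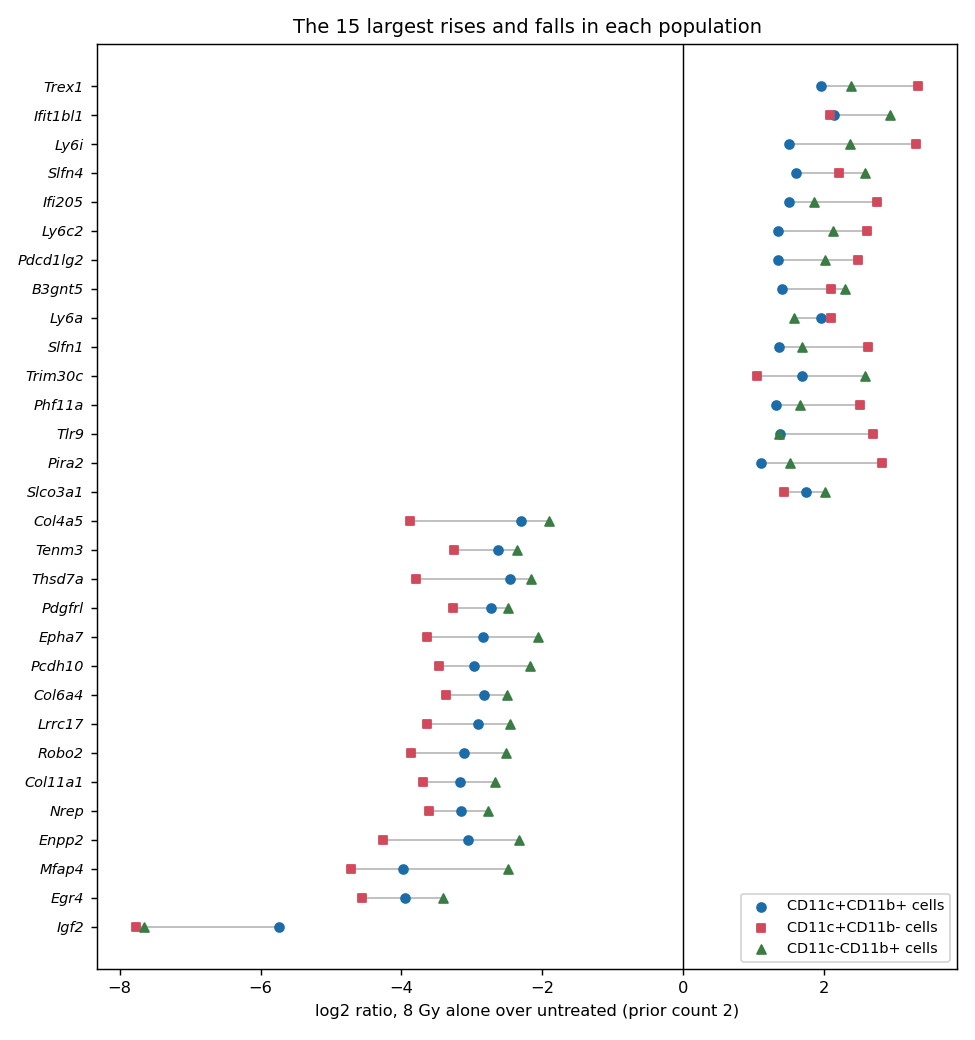
Log2 ratios of 8 Gy alone over untreated in each population for the 15 genes that rose most and the 15 that fell most, with a prior count of 2; points mark populations and grey lines span the 3 values. All 3 points of each gene lie on the same side of 0, as the rule that chose them requires, and CD11c+CD11b- cells hold the lowest ratio for every one of the 15 falling genes.

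Collagens had the highest share of falling members among the 37 lists. Of 19 tested genes, 16 fell and 0 rose in edgeR's test, with a median log2 fold change of -1.64, and 14 were at least 2-fold lower in each pair, against 2.97% of all genes tested. Summed over the list, levels were 8572, 11096 and 11839 CPM in untreated cells and 2197, 1785 and 3635 CPM after 8 Gy, and 839 to 6375 CPM in the pools with antibody. Col3a1, the chain of type III collagen at chr1:45311538-45349706, plus strand, fell from 3742, 4909 and 4721 to 672, 559 and 1081 CPM (log2 fold change -2.59 ± 0.23, SE; edgeR adjusted p = 0.0251). The 3 untreated libraries were alike and each was above every irradiated one, as in 11.9% of all genes tested. Transcript Col3a1-201 held at least 99.8% of the gene's counts in every library. The type VI chain Col6a1 had 841, 1067 and 1136 CPM before and 176, 140.3 and 285 CPM after irradiation (log2 fold change -2.40 ± 0.21, SE; edgeR adjusted p = 0.0251), and the fibril chain Col11a1 had 19.6, 24.5 and 23.2 CPM before and 2.15, 1.84 and 3.61 CPM after 8 Gy (log2 fold change -3.20 ± 0.24, SE; edgeR adjusted p = 0.0251). The 2 chains of type I collagen differed. Col1a1 fell by 1.29 on the log2 scale, from 304, 490.2 and 491 to 149.9, 125 and 270.2 CPM, whereas Col1a2 had 71.9, 114 and 157 CPM before and 79.9, 64.4 and 143 CPM after 8 Gy and did not pass (log2 fold change -0.27 ± 0.20, SE; edgeR adjusted p = 0.464). Col12a1 and Col15a1 did not pass either.

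Of 30 tested matrix proteins other than collagens, 19 fell and 0 rose in edgeR's test, with a median log2 fold change of -1.30. Summed levels were 12988, 7688 and 13219.9 CPM before and 6414, 2449 and 12827 CPM after 8 Gy, so the CD11c-CD11b+ sum was nearly level. The median log2 ratio of the members in that pair was nevertheless -1.02, and 27 of the 30 were lower in all 3 pairs. Postn, the matricellular protein periostin, fell from 245, 350.3 and 232 to 47.2, 37.5 and 78.5 CPM (log2 fold change -2.39 ± 0.33, SE; edgeR adjusted p = 0.0271). Lamb1, a laminin chain of basement membranes, had 92.7, 32.9 and 76.1 CPM before and 10.2, 11.9 and 11.5 CPM after 8 Gy (log2 fold change -2.48 ± 0.36, SE; edgeR adjusted p = 0.0297), and Ccn1, a secreted regulator of adhesion, had 279, 391 and 362 CPM before and 49.6, 44.4 and 86.4 CPM after 8 Gy (log2 fold change -2.57 ± 0.23, SE; edgeR adjusted p = 0.0251). In each of these genes every value after 8 Gy alone was below every untreated one, as in 11.9% of all genes tested. In the irradiated pool with anti-SIRPa alone, however, Lamb1 stood at 75.8, 53.7 and 66.2 CPM. It ranged over 9.74 to 41.3 CPM in the other pools with antibody. Sparc (-1.63), the elastin gene Eln (-2.35) and the collagen chaperone Serpinh1 (-1.27) also fell on the log2 scale. Fn1, the fibronectin gene that macrophages express as well, did not pass (-0.93, edgeR adjusted p = 0.14). Among 22 proteases and inhibitors of the matrix, 8 fell and 0 rose, led by Adamts1 (-2.42) and the gelatinase Mmp2 (-1.99).

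Markers of non-myeloid cells did not all move one way. The shares over all genes tested were 2.58% higher and 4.55% lower. Of 16 tested fibroblast markers 6 fell, 0 rose and 10 did not pass in edgeR's test, and none was at 0 in any of the 6 libraries. Their summed level was 1349, 2169 and 1842 CPM in untreated and 732, 877 and 1189.8 CPM in irradiated cells. The fibroblast list shares Col1a1 and Col1a2 with the collagens and Dcn and Lum with the other matrix proteins, so these lists are not independent. The growth factor receptor Pdgfrb had 52.4, 69.2 and 61.6 CPM before and 11.1, 8.40 and 16.4 CPM after 8 Gy (log2 fold change -2.39 ± 0.24, SE; edgeR adjusted p = 0.0251). Dpt, the matrix protein dermatopontin, had 71.2, 104 and 71.7 CPM before and 13.8, 10.6 and 20.5 CPM after 8 Gy (log2 fold change -2.49 ± 0.30, SE; edgeR adjusted p = 0.0251). Both fell without overlap, as did 11.9% of all genes tested. Dcn, the decorin gene, did not pass (-0.87, edgeR adjusted p = 0.0767), and Fap and Tagln were at 0.147 to 4.57 CPM throughout. Of 11 tested tumour and epithelial markers only Ereg fell (-1.56) and 0 rose, with a median log2 fold change of 0.09 and summed levels of 295, 173 and 147 CPM before and 218, 196 and 173 CPM after 8 Gy. The keratin genes Krt8, Krt18, Krt19 and Krt20 had at most 5 counts in any library and were not tested. Among erythroid markers, 2 of 6 fell and 0 rose, with summed levels of 209, 129.9 and 214 CPM and 81.2, 67.9 and 135 CPM. Among endothelial markers, Plvap fell (-1.24) and Pecam1 rose (0.58) of 10 tested. Their median log2 fold change was -0.17, while the summed level was higher in every pair, at 135, 154 and 114 CPM before and 219.8, 258 and 179 CPM after 8 Gy. The endothelial receptor gene Tek, at 16 to 28 counts in untreated libraries, and the erythropoietin receptor gene Epor, at 9 to 14 counts, were at 0 in all 3 irradiated libraries and did not pass. The part of these cells in the fall of the collagens was not tested.

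Imprinted and fetal growth genes gave 5 falls and 0 rises among 19 tested in edgeR's test, while 4.55% of all genes tested fell and 2.58% rose. H19, an imprinted long non-coding RNA at chr7:142575529-142578143, minus strand, fell from 882, 1178 and 1001 to 222, 166 and 341 CPM (log2 fold change -2.13 ± 0.27, SE; edgeR adjusted p = 0.0255). Every irradiated library was below every untreated one, as in 11.9% of all genes tested. Transcript H19-202 held 94.9 to 98.9% of the gene's counts. The antibody pools ranged over 40.1 to 439 CPM. Its neighbour Igf2, which encodes insulin-like growth factor 2, had 14.8, 15.1 and 13.7 CPM in untreated and 0.211, 0 and 0 CPM in irradiated cells (log2 fold change -7.63 ± 0.74, SE; edgeR adjusted p = 0.0251). The fitted change of Igf2 rests on 6 counts in 1 irradiated library and 0 in the other 2, so its size depends on the prior count, and the gene overlaps the model Gm49394. The cell-cycle inhibitor Cdkn1c (-1.64), the receptor adaptor Grb10 (-1.54) and the RNA-binding protein gene Igf2bp3 (-1.08) were the other log2 fold changes that passed. The fetal chromatin gene Hmga2 differed by -0.09 with an edgeR adjusted p of 0.77.

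The 15 largest falls at 10 CPM or more in at least 3 libraries ran from -2.68 to -7.63 on the log2 scale. After Igf2 came the immediate early factor Egr4, with 10.2, 12.9 and 10.5 CPM in untreated and 0.599, 0.477 and 0.921 CPM in irradiated cells (log2 fold change -4.08 ± 0.30, SE; edgeR adjusted p = 0.0251). Enpp2, the secreted enzyme autotaxin, had 290.1, 459 and 264 CPM before and 35.3, 23.7 and 52.6 CPM after 8 Gy (log2 fold change -3.21 ± 0.40, SE; edgeR adjusted p = 0.0255). Mfap4, a microfibril protein whose gene overlaps Mapk7 on the opposite strand, had 24.6, 34.7 and 17.3 CPM before and 1.51, 1.25 and 3.03 CPM after 8 Gy (log2 fold change -3.74 ± 0.48, SE; edgeR adjusted p = 0.0256). None of the 3, which were chosen for their large falls, overlapped between groups. Of all genes tested, 11.9% had every irradiated library below every untreated one. The others included guidance and adhesion receptors, namely the Slit receptor Robo2 (-3.18), the protocadherin Pcdh10 (-2.89), the ephrin receptor Epha7 (-2.86) and the teneurin Tenm3 (-2.75). Lrrc17, Pdgfrl, Thsd7a, Nrep, Col6a4, Col4a5 and Col11a1 filled the rest of the set, with log2 fold changes of -3.20 to -2.68.

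Targets of p53, the factor that DNA damage activates, passed in both directions 5 days after irradiation. Of 27 tested, 2 rose and 2 fell in edgeR's test, with a median log2 fold change of 0.12. Of all genes tested, 2.58% rose and 4.55% fell. Cdkn1a, the cell-cycle inhibitor p21, rose from 262, 56.4 and 176 to 515, 169 and 405 CPM (log2 fold change 1.25 ± 0.15, SE; edgeR adjusted p = 0.0251), and the death effector Bax from 37.5, 25.8 and 26.4 to 68.7, 48.9 and 39.3 CPM (log2 fold change 0.78 ± 0.12, SE; edgeR adjusted p = 0.0315). The death receptor genes Eda2r (-1.26) and Tnfrsf10b (-1.01) fell, and Mdm2 did not pass (0.34, edgeR adjusted p = 0.183). Of 31 proliferation genes, 0 passed in edgeR's test, in DESeq2 or in limma-voom, and 2 had an unadjusted p below 0.05. Without the CD11c+CD11b- pair, 9 of them fell in edgeR's test. Among the 4 that were named, the mitotic checkpoint kinase gene Bub1b had the largest difference, at -0.48 with an edgeR adjusted p of 0.131.

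**Figure D4:**
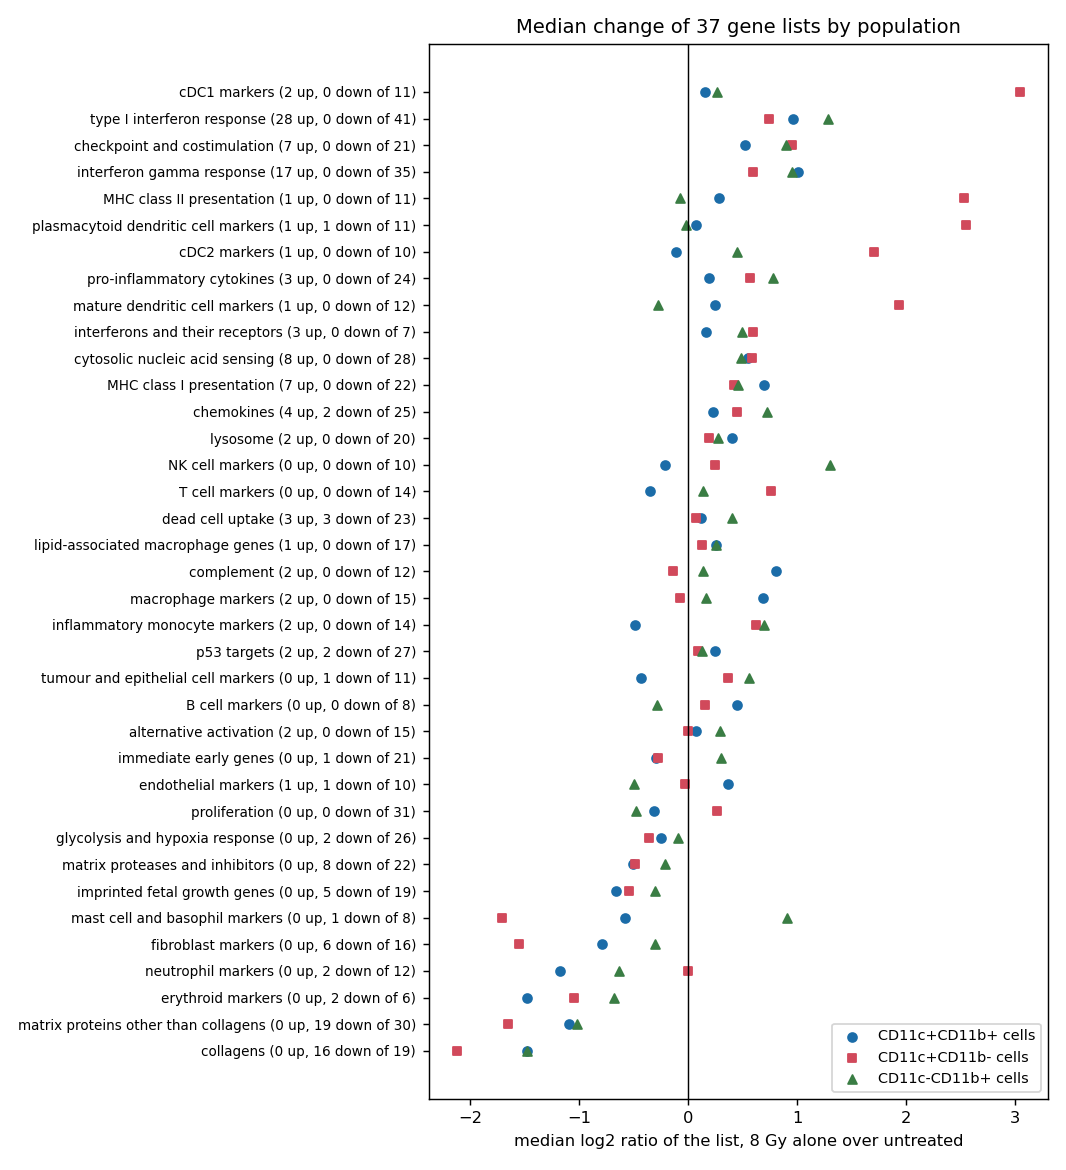
Median log2 ratio of 8 Gy alone over untreated for each of 37 gene lists in the 3 populations, ordered by the median fitted change, with the number of members that passed in each direction beside the name. The collagen and matrix medians lie below 0 and the type I interferon medians above 0 in all 3 populations, while the dendritic cell lists and MHC class II spread widely.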

How the data were processed

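RNA of sorted tumour myeloid cells was sequenced by the submitters. Per the submitters' processing notes, the authors used FastQC 0.11.8, HISAT2, StringTie and edgeR 3.34.0 with GRCm38, and the values they deposited are whole-number estimated counts per transcript. Of 142699 transcripts, 141469 were matched to GENCODE M21 of GRCm38 and summed to 55260 genes. The other 1230 were left out and held at most 0.399% of a library's counts.

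Genes were kept by filterByExpr (minimum count 10, minimum total 15), normalised by TMM and tested with edgeR 4.0.16's quasi-likelihood F-test (R 4.3.3) with population and treatment as terms, which left 2 residual degrees of freedom. Benjamini-Hochberg adjustment covered the 20200 genes tested, a gene passed below 0.05, and each SE was taken from the log2 fold change and its F statistic, which is approximate. Printed levels are CPM by TMM over the 15 myeloid libraries, and the log2 ratios of single pairs use a prior count of 2 and carry no test. Each group had 1 library, and the 6 libraries held 26221672 to 30821075 counts.

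Named genes were the 15 per direction with the largest log2 fold change that passed with 1 sign in all pairs and 10 CPM in 3 libraries, up to 4 members of each of 37 lists, and Trex1, Irf7, H19 and Col3a1. Predicted models, receptor segments and ribosomal pseudogenes were left out. Other members of a list were named after their values were seen. Results of some list members are not reported here. The members and lists were chosen with earlier results of these data known. Alternatives were RLE scaling, other filters, DESeq2 1.42.0, limma-voom (limma 3.58.1), the legacy and newer forms of the test, no population term, all 15 myeloid libraries and each pair left out.

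The test was tried on simulated data with 19729 genes, where it recovered 49 of 100 genes changed 2-fold and 100 of 100 changed 4-fold and called 7 unchanged genes. The changed genes had a mean count of at least 100, and all genes had the same dispersion. Each fold was equal in every population, and no pool effect was simulated. These counts therefore do not give the power or error rate of the test on the real data. Figures were drawn with matplotlib 3.10.9.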

Additional observations from a re-analysis of the deposited data

Results flagged for a closer look

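Among the named genes, 3 had ratios of at least 1.5-fold in opposite directions in different populations. The differences between populations were not tested, since each ratio rests on 1 library a side. Cd24a, a surface glycoprotein used to mark type 1 conventional dendritic cells, had log2 ratios of -0.91, 3.42 and 0.88 in the order of populations used above, so its highest and lowest values were 3.42 and -0.91. Its levels were 89.0, 11.2 and 67.6 CPM in untreated and 48.1, 121 and 125 CPM in irradiated cells. Cd209a, which encodes the DC-SIGN homologue of type 2 conventional dendritic and monocyte-derived cells, had log2 ratios of -0.63, 2.51 and 1.58, with levels of 19.5, 1.88 and 0.479 CPM before and 12.7, 11.01 and 1.57 CPM after 8 Gy. Lck, the T cell receptor-proximal kinase, had log2 ratios of -0.91, 0.22 and 1.07. Its level in the CD11c+CD11b- cells was 168 CPM before and 195 CPM after irradiation, against at most 13.3 CPM in the other 4 libraries.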

How the results depend on the processing

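The 1441 genes kept their direction in every fit in which they were tested. Of them, 1438 moved the same way in all 3 pairs, and every fit used some or all of these pairs. A reversal was therefore hardly possible. RLE scaling called 1412 genes, a mean of at least 1 CPM 1729, and the newer quasi-likelihood form, added after the data were seen, 1802. The legacy form is the installed default and so equals the reported fit. DESeq2 called 3051 genes (1516 higher, 1535 lower), limma-voom 2094 with 884 higher, and all 15 myeloid libraries 3802 (1877 higher, 1925 lower). Without a filter on low counts, 32440 genes were tested and 489 passed (143 higher, 346 lower), with 16 type I interferon genes higher. That fit also called fewer members of other lists: 7 in place of 17 for the interferon gamma response, 7 in place of 19 for matrix proteins, 2 in place of 7 for checkpoint genes, 2 in place of 6 for fibroblast markers, 3 in place of 7 for MHC class I and 4 in place of 8 for nucleic acid sensing. DESeq2 called 17 MHC class I, 17 sensing and 15 checkpoint genes as higher. With no population term, 0 genes passed, higher or lower, with 0 interferon genes and 0 collagens among them, although 2473 had an unadjusted p below 0.05. With each population pair left out in turn, the counts ranged from 0 to 2294 in all, 0 to 1029 higher, 0 to 1265 lower, 0 to 39 interferon genes and 0 to 16 collagens. The counts of 0 came without the CD11c+CD11b+ or the CD11c-CD11b+ pair and those of 2294 without the CD11c+CD11b- pair. All 3 fits had 1 residual degree of freedom. The cause of these shifts was not tested. Prior counts of 0.5 and 10 kept the direction of the single-pair ratios of Trex1, Irf7, H19 and Col3a1, which a prior count can shrink but not reverse. The reported fit is itself paired by population. Pools were not replicated, and the effect of depth was not tested.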

Other observations

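Several further gene groups had members that passed. Of all genes tested, 2.58% rose and 4.55% fell. Of 12 tested complement genes, 2 rose and 0 fell in edgeR's test: Cfp, which encodes properdin, from 186, 20.5 and 88.5 to 349, 88.5 and 202 CPM (log2 fold change 1.39 ± 0.25, SE; edgeR adjusted p = 0.0436), and the receptor gene C3ar1 from 390.1, 45.6 and 269 to 977, 67.8 and 657 CPM (log2 fold change 1.06 ± 0.18, SE; edgeR adjusted p = 0.0381). Both rose in every pair. The C1q chains, which mark tissue macrophages, had log2 fold changes of -0.02 to 0.07 and did not pass. Of 15 tested macrophage markers, Cd68 (0.86) and the high-affinity IgG receptor gene Fcgr1 (1.31) rose and 0 fell. Their summed level was 7838, 1237 and 5987 CPM in untreated and 12737, 1187 and 6538 CPM in irradiated cells, so the CD11c+CD11b- pair was nearly level.

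Among 23 tested genes of dead cell uptake, 3 rose and 3 fell in edgeR's test. The receptor genes Cd300lf (1.24) and Msr1 (0.90) and the cholesterol exporter gene Abca1 (0.79) rose on the log2 scale. Pros1, the protein S bridge to TAM receptors, fell from 38.9, 40.0 and 47.7 to 19.1, 9.62 and 25.7 CPM (log2 fold change -1.32 ± 0.25, SE; edgeR adjusted p = 0.0482), and the TAM receptor gene Tyro3 (-1.08) and the bridging protein gene Mfge8 (-0.75) fell as well. The TAM receptors Mertk (-0.22, edgeR adjusted p = 0.745) and Axl (-0.26, edgeR adjusted p = 0.388) did not pass.

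Of 26 tested glycolysis and hypoxia genes, 2 fell and 0 rose: the vasodilator peptide gene Adm (-1.38) and the collagen prolyl hydroxylase gene P4ha2 (-1.15). Of 15 alternative activation genes, Pdcd1lg2 and the receptor gene Il4ra (0.91) rose and 0 fell, and Arg1, the arginase gene, had 1038, 58.9 and 437 CPM before and 1263, 91.9 and 1321 CPM after 8 Gy (log2 fold change 0.83 ± 0.27, SE; edgeR adjusted p = 0.144). Of 21 immediate early genes, Egr1 fell (-1.38) and 0 rose. Of 20 lysosomal genes, Ctss and the sterol carrier gene Npc2 (0.77) rose and 0 fell.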
